A study of Homo sapiens with 4 samples.

Results

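The RNAs described here were more abundant on streptavidin beads after transfection of biotin-carrying miR-491-5p than after a biotin-carrying control miRNA, and less abundant in the lysate of the same miR-491-5p cells. A gene was taken when its mean normalised count over the 4 libraries was at least 50, its log2 ratio of miR-491-5p over control was at least 1 in the pull-downs, and the same ratio was at most -0.25 in the inputs. The rule was met by 105 of the 12662 genes at the count minimum, or 0.829%, out of 60554 gene models counted. The members were thus chosen by both measured ratios, so the values of both, and of every measure built from them, describe the set and test nothing.

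The cells were IGROV1-R10, an ovarian cancer line, and all 4 groups were transfected with a miRNA duplex at 60 nM. The control was named cel-miR-65 in the study design. Nuclei were spun out of each lysate, 10% of it was kept as input, and the rest was held on the beads for 4 h and washed 5 times. RNA of 3 separate experiments was pooled into each library, so each of the 4 groups (miR-491-5p input, miR-491-5p pull-down, control input and control pull-down) had 1 library and no replicate error could be computed. The libraries held 47679684 to 62582646 counts. Intervals are 95% counting intervals and cover counting error only, without the spread between experiments.

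miRNAs are short RNAs that guide an Argonaute protein to messenger RNAs, mostly through pairing of the seed, bases 2 to 8, with sites in the 3′ untranslated region. Pairing recruits factors that shorten the poly(A) tail and remove the cap, so a bound messenger is translated less and often decays. An RNA can therefore be held by a tagged miRNA while its total level falls. The mature human sequence, shown because its seed defines the sites searched for below, lies at chr9:20716120-20716141 on the plus strand (RefSeq, GRCh38.p14). Capitals mark the seed.
hsa-miR-491-5p: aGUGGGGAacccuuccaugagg
No other mature human miRNA of the RefSeq table carried the seed GUGGGGA, whose match in a target RNA reads UCCCCAC.

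HP and FGB met the rule on very few reads and stood apart from the rest. HP, which encodes the haemoglobin-binding plasma protein haptoglobin, showed 0 counts in input and 10 on the beads of the miR-491-5p cells, against 270 in input and 2 on the beads of the control cells. FGB, the fibrinogen beta chain, had 0, 3, 174 and 0 counts in that order. Against a floor of 3 counts in the miR-491-5p input, HP was at least 110.7-fold and FGB at least 71.3-fold higher in the control input. The pull-down log2 ratio of HP was 1.71 with a counting interval of -0.28 to 3.70, which included 0, and FGB was at or under the floor in both pull-downs. Both genes belong to a list of 12 hepatocyte genes whose summed normalised counts were 21.9, 30.7, 3650 and 26.6, again in that order. All 7 genes of that list at the count minimum had an input ratio of at most -0.25, and the part of such RNA in the control input in the 2 memberships was not tested. Of 8 epithelial and ovarian carcinoma markers, which include PAX8, EPCAM, KRT8 and KRT18, 8 were at the count minimum and 0 were members. Of 6 immune markers 0 reached it, and of 7 fibroblast markers 3 did, with 0 members. Since 0.829% of all genes were members, 0 in lists this short says nothing about these cell types. Those 3 had reduced input too (COL1A1 -2.54, COL1A2 -1.69 and COL3A1 -0.96), and the summed normalised counts of the fibroblast list were 297 in the miR-491-5p input, 41.2 on its beads, 765 in the control input and 40.9 on its beads. Their part in the members' input ratios was not tested. Without HP and FGB, 103 members remained, and their median log2 enrichment was 1.82, as it was for all 105.

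Reduced input was more frequent among captured genes than among the rest. Of the genes at the count minimum, 318 (2.51%) reached the 2-fold capture limit, and 1958 (15.5%) had the reduced input. Among the 318 captured genes 33.0% were reduced (105 of 318), against 15.0% of the 12344 genes that were not captured. The opposite change, an input log2 ratio of at least 0.25, was seen in 18.2% of captured genes and 17.6% of the others. The share of genes with reduced input was 13.2% where the pull-down ratio was between 0 and 0.5, 19.8% between 0.5 and 1, 31.1% between 1 and 1.5, and 38.8% at 1.5 or more. It was 18.1% among the 403 genes at -1 or less. Of these genes, 150 (37.2%) showed the opposite change, an input ratio of at least 0.25. The pull-downs and inputs came from the same lysates, and no test of this association was made with 1 library per group.

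The members' median log2 ratio was 1.25 in the pull-downs and -0.47 in the inputs, against 0.01 and -0.01 over all genes at the count minimum. The enrichment defined in the study design divides the pull-down ratio by the input ratio, and its median was 1.82 on the log2 scale, against 0.00 over all genes. It reached 4-fold in 35 members, where 0.434% of all genes did, and 2-fold in 105, which the rule itself requires, where 4.46% of all genes did. The input ratio was at most -0.5 in 46 members (4.6% of all genes) and at most -1 in 10 (0.513%). For 86 members both counting intervals lay clear of 0, while for 17 the interval of the input ratio included 0. In 21 members some library held fewer than 50 raw counts.

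**Figure D1:**
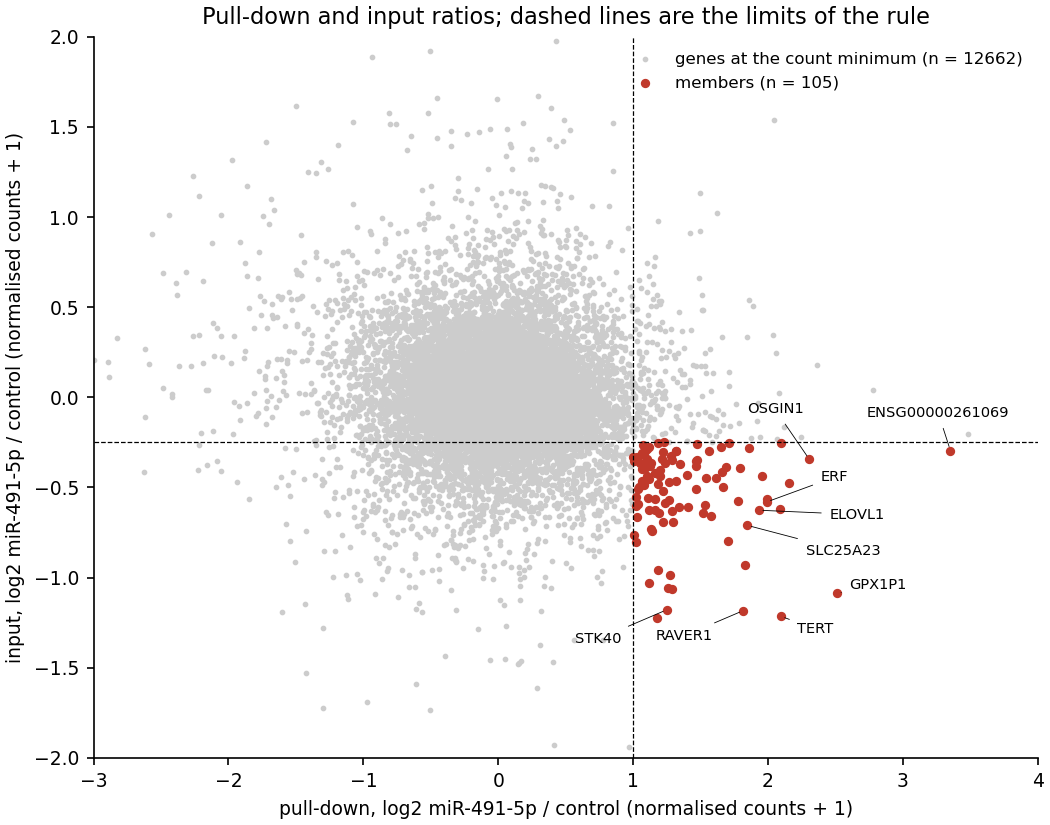
Log2 ratio of miR-491-5p over control in the inputs (vertical) against the same ratio in the pull-downs (horizontal), on normalised counts plus 1, for the 12662 genes at the count minimum (grey) and the 105 members (red), with the limits of the rule as dashed lines. The members fill the lower right corner, most of them close to both limits, with RAVER1 and TERT far below and ENSG00000261069 far to the right; 18 genes, HP and FGB among them, lie outside the axes.

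RAVER1, ERF, ELOVL1 and SLC25A23 were among the most abundant genes near the top of the enrichment. RAVER1 (chr19:10316212-10333640, minus strand, hg38), an RNA-binding partner of the splicing repressor PTB, had 285 normalised counts in input and 1521 on the beads with miR-491-5p, and 649 in input and 431 on the beads with the control. Its miR-491-5p pull-down was the highest of the 4 libraries and its miR-491-5p input the lowest. The log2 enrichment was 3.00 (counting interval 2.74 to 3.26), made of 1.82 in the pull-downs and -1.18 in the inputs. Of its exonic bases 38.1% were shared with another gene model, where reads cannot be assigned.

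ERF (chr19:42247572-42255157, minus strand), a repressor of the ETS transcription factor family that is controlled by ERK, was at 1008, 3526, 1508 and 887 normalised counts in the same library order. ELOVL1 (chr1:43363397-43368074, minus strand), the elongase of saturated very-long-chain fatty acids, was at 2585, 8435, 3991 and 2211. SLC25A23 (chr19:6436079-6465203, minus strand), a calcium-regulated carrier of ATP-Mg and phosphate in the inner mitochondrial membrane, was at 1379, 4404, 2258 and 1224. These 3 genes shared a pattern in which the miR-491-5p pull-down was highest, the control input second and the control pull-down lowest. Their log2 enrichments were 2.57 (2.41 to 2.73) for ERF, 2.56 (2.46 to 2.66) for ELOVL1 and 2.56 (2.42 to 2.69) for SLC25A23, and these intervals overlapped.

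The named member with the highest enrichment among protein-coding genes after HP and FGB was TERT (chr5:1253147-1295069, minus strand), the reverse transcriptase of telomerase. Its normalised counts were 18.8 in input and 151 on the beads with miR-491-5p, and 45.0 in input and 34.6 on the beads with the control. The raw counts were 18, 187, 35 and 39 in that order. Only the miR-491-5p pull-down exceeded the count minimum set for the mean, so TERT met that minimum through the library in which it was high. Its log2 enrichment of 3.31 had a wide interval of 2.36 to 4.26, which overlapped that of RAVER1. The unnamed gene model ENSG00000261069 (chr15:25087661-25088896, plus strand, a single exon of 1236 bases) had 85.7, 1478, 105 and 144 normalised counts. Its pull-down ratio of 3.35 was the highest of all members, whereas its input ratio of -0.30 had an interval from -0.74 to 0.15.

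**Figure D2:**
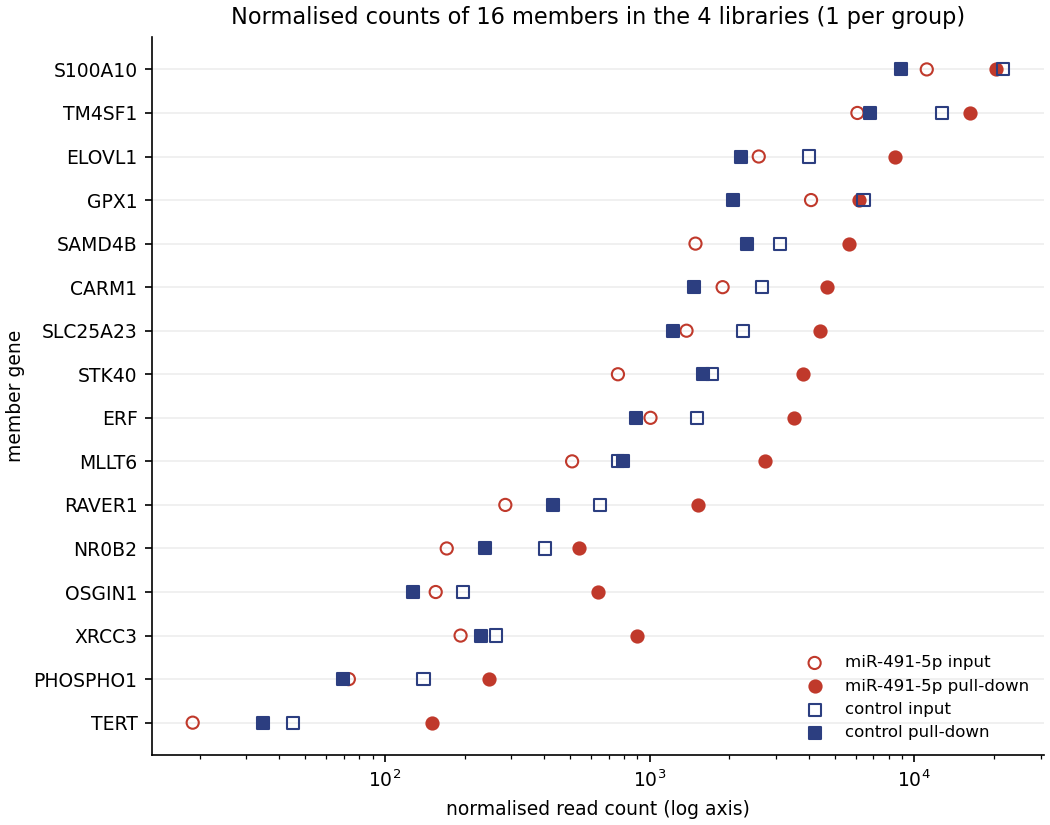
Normalised read counts on a log axis of 16 protein-coding members in the 4 libraries (circles for miR-491-5p, squares for the control, open for input, filled for pull-down), 1 library per group. For each gene the miR-491-5p pull-down lies right of the control pull-down and the miR-491-5p input left of the control input; in S100A10 and GPX1 the miR-491-5p pull-down only reaches about the level of the control input.

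By known function, 77 of the 105 members were sorted into 9 groups after their values had been seen. Transcription and chromatin was the largest, with 16 members and a median log2 enrichment of 1.87. It included ERF, and NR0B2 (the small heterodimer partner, a nuclear receptor that represses bile acid synthesis), which was at 171, 542, 402 and 239 normalised counts in the library order used above. Its input log2 ratio of -1.23 was the lowest after HP and FGB. CARM1, an arginine methyltransferase and coactivator, was at 1888, 4686, 2664 and 1473. MLLT6, a PHD-finger protein fused to KMT2A in leukaemia, was at 510, 2731, 761 and 794, so that it was held on the miR-491-5p beads but lay near its input level on the control beads. NFKBID, an atypical IκB protein, had an enrichment of 2.02, and ZNF384, a zinc-finger factor, had 1.99. The fat-cell regulator PPARG (1.48) and the epithelial-mesenchymal factor SNAI1 (1.48, with an input interval of -0.93 to 0.43) were at the lower end. SNAI1 was at 36.6, 93.0, 43.7 and 39.1 normalised counts, so like TERT it met the count minimum through its miR-491-5p pull-down.

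RNA-binding and translation factors made up 9 members with a median enrichment of 1.83. SAMD4B, a homologue of the fly translational repressor Smaug, was at 1491, 5689, 3116 and 2334 normalised counts, with log2 ratios of 1.29 in the pull-downs and -1.06 in the inputs. PATL1, which links deadenylated messengers to decapping in P-bodies, was at 3621, 7568, 5309 and 3734. MAGOHB, a core subunit of the exon junction complex, had an enrichment of 1.66, EIF5A, a translation elongation factor that carries hypusine, 1.74, and SRP14, a subunit of the signal recognition particle, 1.84. On the miR-491-5p beads ZMAT5 and GON7 were below their own input and the other 7 above it, where 88.6% of all members and 39.8% of all genes were above.

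The 10 signalling members had a median enrichment of 1.73, and 10 of 10 were above their own input on the miR-491-5p beads, near the share of 88.6% over all members. STK40, a pseudokinase that serves as an adaptor of the COP1 ubiquitin ligase, was at 760, 3800, 1720 and 1597 normalised counts. The tetraspanin-like membrane protein TM4SF1, the most abundant of the group, was at 6097, 16249, 12706 and 6788, and its counting interval was narrow (2.26 to 2.38 around an enrichment of 2.32). BMP1, the procollagen C-proteinase, had 2.16. MAP3K11, a kinase upstream of JNK, had 1.87, and the calcium channel TRPV4 had 1.98. FGFR4, a fibroblast growth factor receptor, had 1.54.

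Lipid and redox metabolism held 11 members. Besides ELOVL1 they included PHOSPHO1, a phosphatase of phosphocholine and phosphoethanolamine, with 73.1, 248, 140 and 69.3 normalised counts, and GPX1, the selenium-dependent glutathione peroxidase, with 4074, 6167, 6430 and 2069. The sialyltransferase ST6GALNAC4 had an enrichment of 2.08, the polyprenol reductase SRD5A3 1.54, and the cytochrome CYP2S1 1.86. Among 7 mitochondrial members, CHCHD10, a protein of the intermembrane space, had 2.50, while TOMM22, a receptor of the outer-membrane import machinery, had 1.52 and the pyruvate carrier subunit MPC1 had 1.40.

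Genome maintenance and cell division held 5 members with a median enrichment of 2.19. XRCC3, a factor of homologous recombination, was at 193, 898, 262 and 231 normalised counts, and shared 76.7% of its exonic bases with other gene models. CDK2AP2 had 2.19 and the kinetochore protein CENPT 1.62. In the cytoskeletal group of 7, S100A10, the annexin A2 partner, was at 11145, 20271, 21672 and 8920, profilin (PFN1) at 13280, 16217, 18510 and 7140, and the myosin light chain MYL9 had an enrichment of 1.79. On the log2 scale S100A10 lay 0.86 above its input on the miR-491-5p beads and at -1.28 relative to its input on the control beads, and PFN1 lay at 0.29 and -1.37. The 10 genes of vesicle transport and protein degradation had a median of 1.62, led by the proton pump subunit ATP6V0D1 (2.14) and the ubiquitin ligase adaptor ASB13 (1.95). Over the 8 groups other than the plasma proteins, median enrichments ran from 1.62 to 2.19, a range well inside the spread of members within a group, such as 1.40 to 2.57 in transcription and chromatin.

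The leading members were also set beside their close relatives, where few captured genes are expected in lists this short, since 2.51% of all genes were captured. Of 8 raver and PTB splicing genes, RAVER1 was the member, and the other 7 had log2 enrichments from -1.38 (PTBP2) to 0.28 (HNRNPL), with RAVER2 at -0.68. Of 16 ETS factors at the count minimum ERF was the member. ELK3 (1.42) and ETV4 (1.34) came next, both with input ratios of -0.92 or lower but pull-down ratios of 0.50 and 0.34. ELOVL1 contrasted with 4 measured elongases between -0.70 (ELOVL7) and 0.14 (ELOVL5). SLC25A23 contrasted with 4 related carriers between -1.23 (SLC25A24) and 0.37 (SLC25A13 and SLC25A25). Among 5 FGF receptor genes FGFR4 (1.54) stood beside FGFRL1 (1.12), FGFR1 (0.39), FGFR3 (-0.09) and FGFR2 (-0.26), and the 6 other telomerase genes lay between 0.07 (GAR1) and 0.90 (WRAP53). The families were chosen for these members, and TERT reached the count minimum only through its miR-491-5p pull-down, so the contrast is a description.

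**Figure D3:**
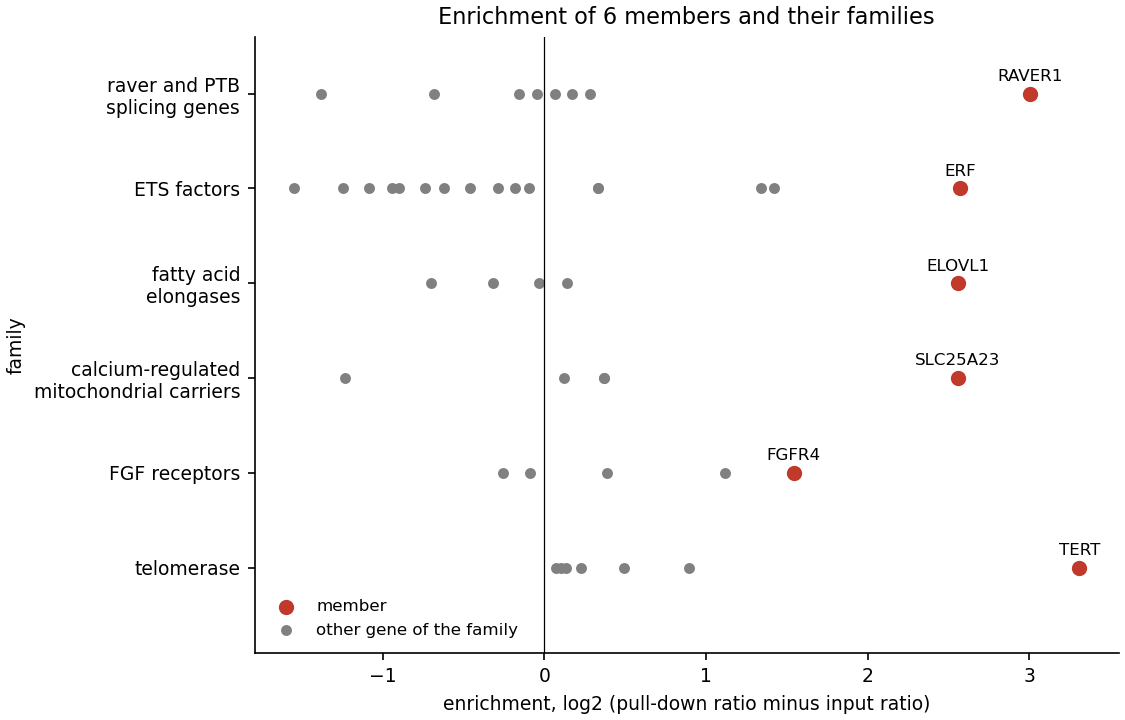
Log2 enrichment (pull-down ratio minus input ratio) of 6 members (red) and of the other genes of their families at the count minimum (grey). Each member lies to the right of all its relatives, by a wide gap for RAVER1, ELOVL1, SLC25A23 and TERT and by a small one for FGFR4, whose nearest relative FGFRL1 was at 1.12.

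Of 17 genes listed from general knowledge as reported miR-491-5p targets, 14 were at the count minimum. Of these, 9 had reduced input (15.5% of all genes did) and 1, FGFR4, was captured as well (2.51% of all genes were captured). Of those reduced but not captured, 3 came closest to the capture limit. BCL2L1, which encodes the survival protein BCL-XL, had a pull-down ratio of 0.74 and an input ratio of -0.53. GIT1 had 0.72 and -0.65, and FOXP4 had 0.78 and -1.35. KDM4B (0.46 and -0.47), IGF2BP1 (-0.22 and -0.44) and SMAD3 (-0.69 and -0.41) were also reduced without capture. Over the 14 genes the median log2 enrichment was 0.57, and it was below 0 for CDK6 (-0.47), SMAD3 (-0.28) and ITGB5 (-0.05). EGFR and HMGA2 had strongly reduced inputs (-1.05 and -1.17) and were lower, not higher, on the miR-491-5p than on the control beads (-0.62 and -0.61). With the input ratio divided out, their log2 enrichments were above 0, at 0.43 and 0.56. Against their own input they lay at 0.59 and 0.53 on the miR-491-5p beads, and at 0.16 and -0.04 on the control beads. Of 13 genes of the miRNA machinery 0 were members, and of 14 measured BCL2-family genes 0 were, which at 0.829% of all genes says nothing about either list.

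Against its own input, most of the set was held on the miR-491-5p beads and depleted on the control beads. The pull-down over the input of the same cells was above 0 on the log2 scale for 93 members with miR-491-5p (39.8% of all genes were). It was at least 1 for 47 (5.35%). On the control beads 97 members were below their input (57.9% of all genes), 49 of them at least 2-fold (10%). Both together, above on the one and below on the other, held for 85 members, against 12% of all genes. The medians were 0.88 on the miR-491-5p beads and -0.98 on the control beads, while both medians over all genes were -0.15. These ratios use the libraries that chose the members.

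A further 8 members were above their input on both kinds of beads, against 27.7% of all genes. They were MLLT6, FAM222B, CDCA4, ASB13, DNAJB5, CPTP, IMP3 and ENSG00000261069. ASB13, for example, lay 2.74 above its input on the miR-491-5p beads and 0.79 above it on the control beads. The last 12 were below their input on both, against 45.9% of all genes, so that they were less depleted on the miR-491-5p beads rather than concentrated there. They comprised 4 of the 90 protein-coding members (ZMAT5, GON7, CRIP2 and H2AC16), 5 of the 8 pseudogenes, 2 of the 3 lncRNAs and 1 unnamed gene. Their median exonic length was 1429.5 bases. The name captured therefore holds for these 12 only relative to the control beads.

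**Figure D4:**
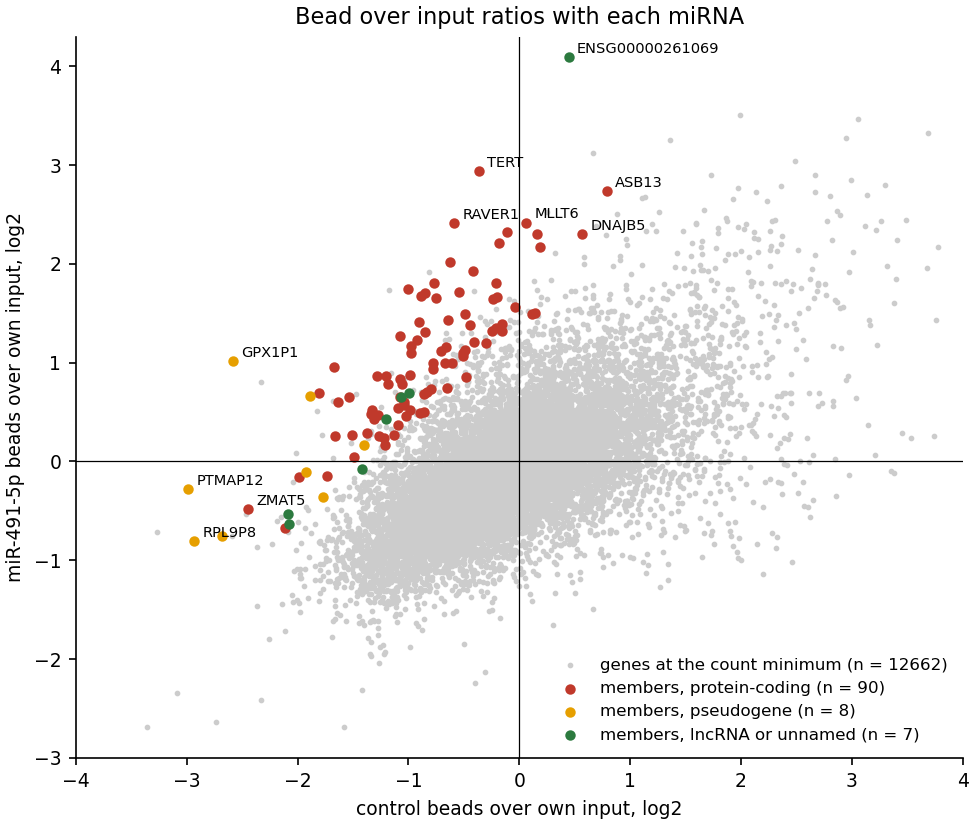
Log2 ratio of pull-down over own input with miR-491-5p (vertical) against that with the control miRNA (horizontal), for all genes at the count minimum (grey) and the members, coloured by biotype. Most members sit in the upper left, above the horizontal and left of the vertical zero line, 8 sit in the upper right and 12, largely pseudogenes and lncRNAs, in the lower left; 20 genes, HP and FGB among them, lie outside the axes.

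Of the 101 members that could be named, 90 (89.1%) were protein-coding, 8 (7.92%) pseudogenes and 3 (2.97%) lncRNAs, against 91.9%, 3.02% and 4.60% of all named genes at the count minimum. Named captured genes without reduced input held 84.8%, 7.61% and 6.09%, so the pseudogene share was not particular to the members. Of the 8 pseudogenes, 6 were paired with a parent gene. Reads that matched copy and parent alike were left out of the counts, so the copies' values rest on the remaining reads and are uncertain. GPX1P1, a copy of the glutathione peroxidase gene, was at 41.8, 85.7, 89.9 and 14.2 normalised counts, highest in the control input, and its parent GPX1 was a member too, with enrichments of 3.60 and 2.23. The coding copy EIF5AL1 (1.84) and its parent EIF5A (1.74) were likewise both members. In contrast, PTMAP12 (2.70), FTH1P2 (2.55), RPL9P8 (2.13), HMGB1P10 (1.93) and GTF2IP1 (1.82) had parents outside the set, with PTMA at 0.60, FTH1 at 1.43, RPL9 at -0.16, HMGB1 at 0.32 and GTF2I at 0.43. The lncRNAs were MPDU1-AS1 (1.63), CASC8 (1.55) and ATP6AP1-DT (1.44). Since reads were counted without regard to strand, those in exons that MPDU1-AS1 shares with another gene model (28.8% of its exonic bases) were left out. In total, 24 members shared more than 10% of their exonic bases with another gene model.

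Members were short. Their median exonic length was 3198 bases (quartiles 2019 and 5094), against 4864.5 over all genes at the count minimum. Captured genes without reduced input were as short (3273), whereas genes reduced but not captured (4548) and genes of the opposite pattern, lower in the pull-down and higher in input (5137.5), were near the overall length. Among protein-coding genes the medians were 3488 for members and 5223 for all. The members also spanned less genome (median 9964 against 30645.5 bases), and had fewer separate exon blocks (7 against 10), a shorter last block (923 against 1499 bases) and lower mean normalised counts (430 against 1490). Captured genes without reduced input shared these traits, with medians of 12424 bases of genome, 8 blocks, 738 bases in the last block and 248 normalised counts.

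The share of genes captured was lower in each longer length class, from 5.07% at up to 1000 bases and 4.87% at 1000 to 2000, through 3.67% and 1.94%, to 0.669% above 8000. The share with reduced input ran from 19.02% to 12.2% over the same classes, and that of members from 1.45% to 0.236%. Both kinds of beads differed by length as well. From the shortest to the longest class the median pull-down over input was -0.36, -0.64, -0.38, -0.13 and 0.15 on the control beads. On the miR-491-5p beads it was -0.45, -0.52, -0.29, -0.12 and 0.04. The median pull-down ratio of miR-491-5p over control was -0.01, 0.08, 0.06, 0.01 and -0.04. The part of these values in the members' length was not tested. Chromosome 19, which is rich in genes, held 13.3% of the members and 13.1% of the captured genes without reduced input, against 6.73% of all genes, 8.85% of genes reduced but not captured and 4% of the opposite pattern.

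**Figure D5:**
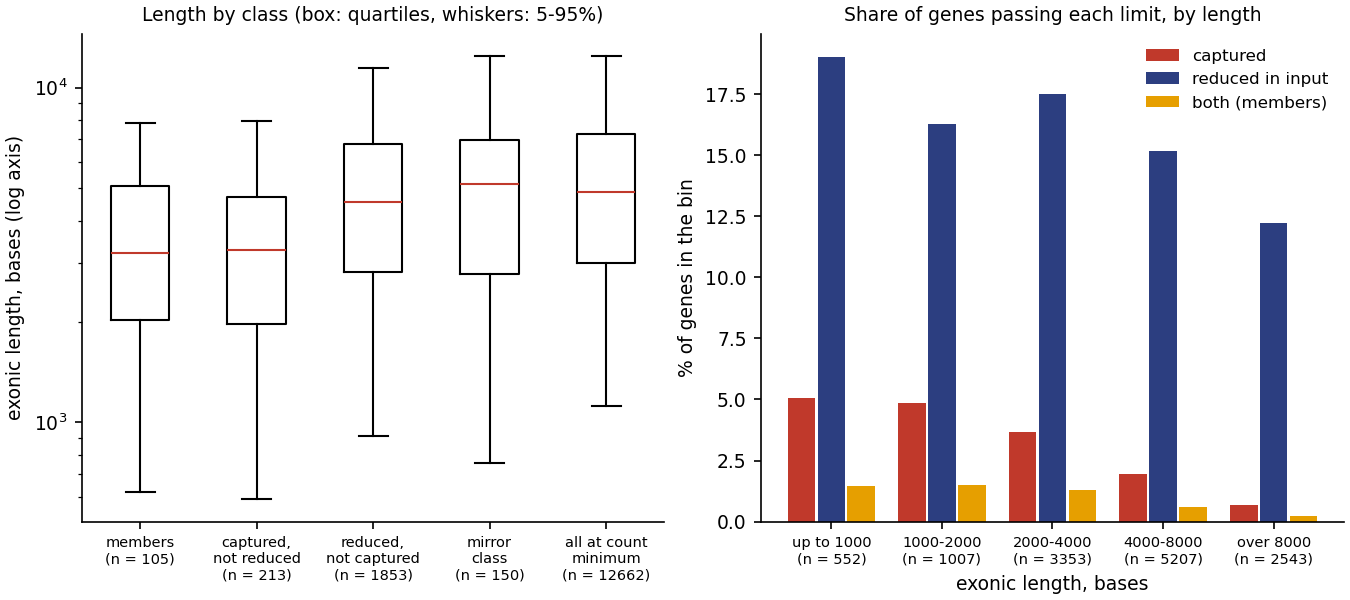
Left, exonic length on a log axis by class (box, quartiles; red line, median; whiskers, 5th to 95th percentile). Right, the percentage of genes in 5 length classes that were captured, reduced in input, or both; members and other captured genes share a median near 3200 bases, and the captured share drops from 5.07% to 0.669% with length.

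Transcript and 3′ untranslated sequences were not used here, so the usual sites of miR-491-5p could not be counted. RefSeq windows of 300 bases around the gene start were at hand for 75 of the 101 named members, under 80%, which makes any comparison of shares void. The 7 letters TCCCCAC, searched in the sense direction within the first 50 transcribed bases, were found in 3 of the 75 members, and in 45 of 9367 genes (0.480%) overall. Captured genes without reduced input held them in 3 of 153. These counts are too small and too incomplete to be read as a difference. Those 3 stretches are the only matches found here in the first 50 transcribed bases, by the RefSeq start, of the 75 members. They come from chr11:59669009-59669037 (minus strand), chr16:83953242-83953270 (plus strand) and chr17:28842762-28842790 (minus strand) of GRCh38.p14, and are shown with the match in capitals.
PATL1: cgTCCCCACgcacgctccggcgtacggcg
OSGIN1: agcctcttggaTCCCCACagggtaatggg
FAM222B: agTCCCCACagctgcgccggtgactgagg
The stretches of OSGIN1 and FAM222B lie inside exons of the counted gene models and that of PATL1 just outside them. OSGIN1, an oxidative-stress-induced growth inhibitor, was at 156, 636, 198 and 128 normalised counts, and FAM222B had 691, 3423, 1413 and 1579. On both strands of the whole window the letters occurred in 11 of the 75 members, in 20 of 153 captured genes without reduced input and in 9.26% of all 9367 genes.

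The limits of the rule cut through a continuum. Just inside the capture limit lay RUSC1 (1.00), IMP3 (1.01) and FHL3 (1.01), and just outside APOC1, FXYD5 and SLC5A4-AS1 (0.99 each). At the input limit SNAI1, CLEC2L and ZMAT5 were inside at -0.25, and LSM12P1 (-0.247), MAPK3 (-0.24) and NCKIPSD (-0.24) outside. At the count limit SNAI1 (53.1), GON7 (54.9) and ENDOV (55.6) were inside, and SLC26A1 (49.1), LMX1B (47.3) and ADAP1 (47.2) outside. MAPK3 encodes the kinase ERK1 and SLC26A1 a sulphate transporter.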

How the data were processed

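The authors deposited whole-number read counts per gene of 4 libraries with each gene model's exonic length, counted by featureCounts (1.5.0-p1) against hg38 and GENCODE release 24 without regard to strand, leaving out duplicates and reads shared by several places or genes, per the file headers. The submitters' processing notes also name STAR and DESeq2 1.10.1. Here counts were divided by median-of-ratios size factors (0.957, 1.24, 0.778 and 1.13 for miR-491-5p input, its pull-down, control input and its pull-down), and log2 ratios taken on normalised counts plus 1. Standard errors used counts plus 0.5, and intervals 1.96 standard errors. With 1 library per group nothing was tested. Names came from RefSeq positions on GRCh38.p14, which named 101 of the 105 members. Named genes were the 4 markers RAVER1, ERF, ELOVL1 and SLC25A23, the 20 named members of highest enrichment, the 6 non-coding members of highest enrichment, genes of the lists, and the 3 nearest each limit. Other members named by function were chosen after their values were seen. Members and lists were chosen with earlier results of these data known. Scripts (Python 3.11.15, edgeR 4.0.16 for TMM factors) were tested on simulated data. Alternatives were scaling, pseudocount, count minimum, input limit and left-out genes.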

Additional observations from a re-analysis of the deposited data

Results flagged for a closer look

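For 3 members the beads departed from their own input in opposite directions by at least 2-fold in both transfections with counting intervals clear of 0, each with 1 library per group, and the difference was not tested. HP and FGB also did so, but their intervals on the miR-491-5p beads included 0. GPX1P1 was 1.02 above its input on the miR-491-5p beads and -2.58 relative to it on the control beads (log2). PHOSPHO1 was at 1.75 and -1.01, and CLEC2L, a C-type lectin-like membrane protein, at 1.27 and -1.08. GPX1P1 rests on 40, 106, 70 and 16 raw counts.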

How the results depend on the processing

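The number of members changed with scaling, the count minimum and the input limit. Total counts gave 163 members (1.28% of genes at the count minimum, against 0.829% in the main setting), and all 105 stayed in. There the median pull-down ratio of all genes rose to 0.17, captured genes to 4.203% and the members' median bead ratio over input to 1.103. A minimum of 20 counts gave 180 members (1.21% of genes), and 76.4% of the named ones were protein-coding. An input limit of -0.5 gave 46 (0.363%), with a bead ratio of 1.098. At that limit 14.5% of captured genes were reduced, against 4.6% of all genes. With no count filter there were 1260 (2.08% of 60554), with medians of 3.03 for enrichment, 1.47 in the pull-downs and -1.19 in the inputs. Their medians were 1.39 for the bead ratio and 1138 bases of length, and 45.7% of the named ones were protein-coding. Of captured genes 23.8% were reduced, against 12.9% of all genes. At a minimum of 100, 79 members remained (0.690%), and the listed genes among them fell from 8 to 5. TMM factors gave 97 members (0.765%), and pseudocounts of 5 and 0.5 gave 95 (0.750%) and 106 (0.837%). Of the 105, 92 were kept under both scalings and both pseudocounts. Leaving out HP and FGB, or all genes not named as protein-coding (11 pseudogenes and lncRNAs and 4 unnamed members), was added after seeing the data and left 103 and 90. No direction reversed in the results compared. Members were selected anew by the same kind of rule in each setting, so the pull-down, input and enrichment medians could not reverse. The single genes compared were the 20 named members of highest enrichment. The planned search for seed matches in 3′ untranslated, coding and whole transcript sequence was not run, for want of sequences, and the stricter naming rule named 95 members and changed 0 names. No paired analysis was possible because each group had 1 library.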
